A study of Mus musculus with 25 samples.

Results

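The 3 genes of the SH2B adaptor family (Sh2b1, Sh2b2 and Sh2b3) and 2 genes that lie near Sh2b2 on chromosome 5 (Fam20c and Zfp157) were followed across the genotypes of a bulk RNA sequencing study of mouse bone marrow neutrophils. They are 5 of the 35741 gene symbols counted, and all 5 were among the 16206 genes with enough reads to test. They were chosen knowing that Sh2b2, Fam20c and Zfp157 differ with deletion of Ptpn6, which encodes the phosphatase SHP-1. Their values in those contrasts are therefore given as a description, and counts of genes past a threshold there only describe the choice.

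All mice were female C57BL/6J aged 6 to 13 weeks, and neutrophils were taken from bone marrow by density layering on Percoll. The labels write a germline knockout as -/- and a deletion in neutrophils (polymorphonuclear cells) as ∆PMN. Groups with Ptpn6 intact were wild-type, Ripk3-/- and Mlkl-/- (3 libraries each) and Ripk3-/- Mlkl-/- (2 libraries). Groups with Ptpn6 deleted were Ripk3-/- Ptpn6∆PMN and Ripk3-/- Mlkl-/- Ptpn6∆PMN (3 each), and Mlkl-/- Ptpn6∆PMN, Casp8∆PMN Mlkl-/- Ptpn6∆PMN and Ripk3-/- Mlkl-/- Casp8∆PMN Ptpn6∆PMN (2 each). The single Casp8∆PMN Ptpn6∆PMN library, the only one labelled as inflamed, carried neither germline knockout. Every other group with Ptpn6 deletion lacked Ripk3, Mlkl or both. No group had the ∆PMN deletion of another gene with Ptpn6 intact, so a response to the loss of Ptpn6 and DNA carried along with the deletion (the recombinase transgene or the altered Ptpn6 allele) cannot be told apart in any comparison below. The promoter that drives the recombinase is not given in the sources used here. One more library had labels that conflict with each other and entered no comparison. Nothing in the labels says that the libraries of a group came from separate mice, so p-values measure only the spread between these libraries, which may be technical.

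SH2B proteins are adaptors: a dimerization region, a PH domain and an SH2 domain let them dock on phosphorylated tyrosines of cytokine receptors, JAK kinases and receptor tyrosine kinases. SH2B1 and SH2B2 (also called APS) can strengthen or redirect signals of JAK2, Kit and the insulin receptor, and SH2B2 also brings in the ubiquitin ligase Cbl. SH2B3 (also called LNK) is best known as a brake on cytokine signalling in blood-forming cells. FAM20C is a kinase of the secretory pathway that phosphorylates secreted proteins, and Zfp157 encodes a zinc finger protein.

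Each library held 21598177 to 23187676 estimated counts, and levels are given as CPM, counts scaled to the size and composition of each library. Ptpn6 lay between 120 and 314 CPM in the 13 libraries labelled with its deletion and between 490 and 707 CPM in the 11 assigned libraries without it, so Ptpn6 followed the labels. Ripk3 did too, at 0 to 0.154 CPM in assigned libraries labelled Ripk3-/- and 2.51 to 10.5 CPM in the others. Mlkl, at 0.23 to 1.64 CPM in assigned libraries labelled Mlkl-/- and 1.40 to 4.86 CPM in the others, overlapped. So did Casp8, at 16.3 to 23.6 CPM in libraries labelled Casp8∆PMN and 21.2 to 38.0 CPM in the others, where Mlkl-/- Ptpn6∆PMN replicate 1 was the lowest. All 13 neutrophil markers listed were detected in every library, with a summed level of 62000 to 142000 CPM. Markers of B cells (8 of 8 detected, summed level 395 to 1770 CPM) and of red cell precursors (8 of 8, 634 to 9750 CPM) were also above 0 in every library.

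In wild-type neutrophils the family members stood at very different levels. Divided by the length of their merged exons, the level was 50.4 ± 6.31 CPM per kb (SD, n = 3) for Sh2b3, 28.1 ± 4.73 for Sh2b1 and 3.69 ± 0.438 for Sh2b2. On the same scale Zfp157 stood at 1.2 ± 0.160 and Fam20c at 0.426 ± 0.101 CPM per kb. Sh2b3, the inhibitory member, was thus the most abundant SH2B transcript and Sh2b2 the least abundant. Of the family's summed level per length, Sh2b2 made up 3.83% to 8.28% (median 5.32%) in the 11 libraries with Ptpn6 intact and 1.55% to 3.10% (median 2.11%) in the 13 libraries with Ptpn6 deleted. The share of Sh2b3 moved little, from 60.5% to 67.4% with Ptpn6 intact and from 59.6% to 68.3% with Ptpn6 deleted.

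**Figure D1:**
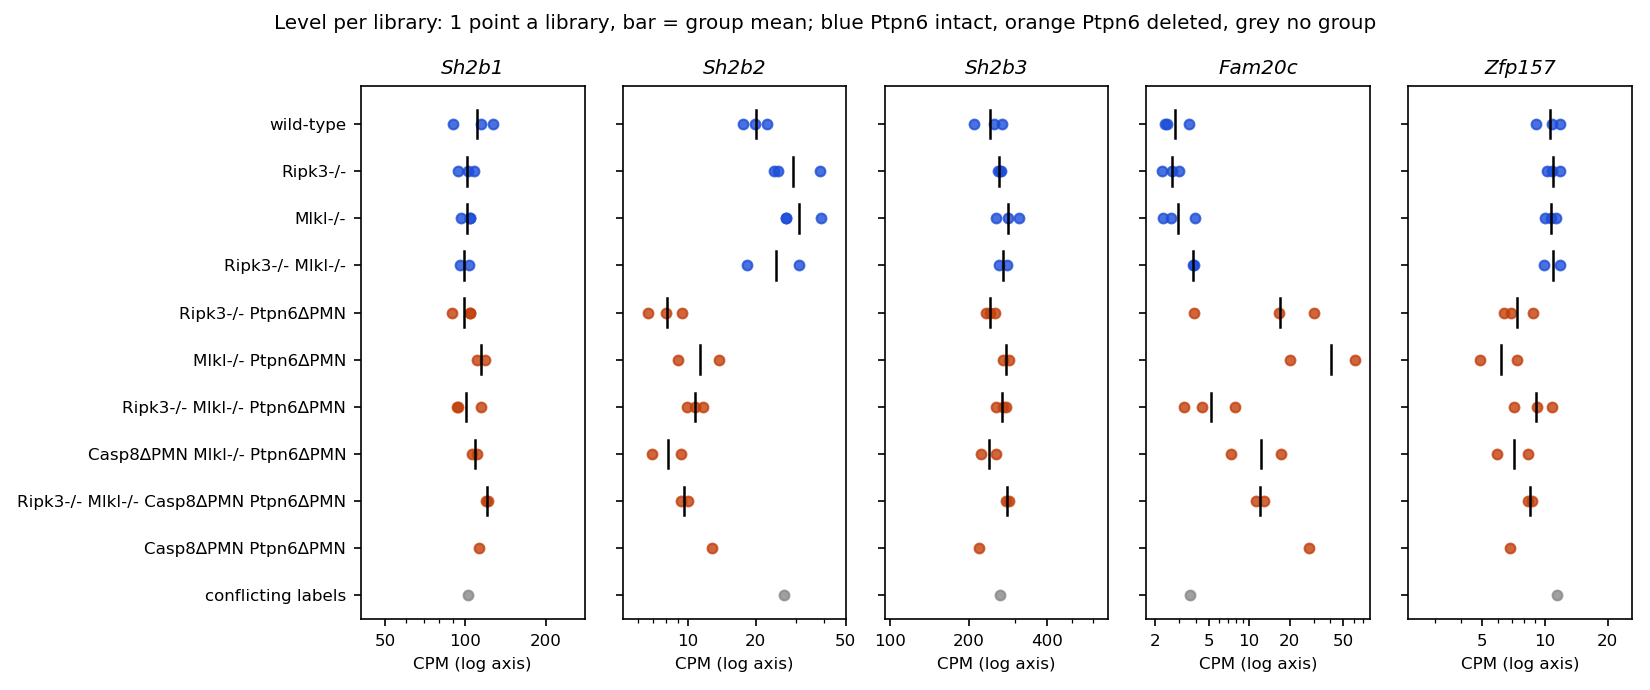
Level of each gene in every library, in CPM on a log axis, by genotype (1 point a library, vertical bar for the group mean, blue for Ptpn6 intact, orange for Ptpn6 deleted, grey for the library with conflicting labels). All 13 orange points of Sh2b2 (6.69 to 13.7 CPM) lie below all 11 blue points (17.6 to 38.8 CPM), while for Sh2b1 and Sh2b3 the orange and blue points overlap when all backgrounds are pooled.

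On build GRCm38.p6, with positions from RefSeq, Sh2b2 lies on chromosome 5 from 136218147 to 136246595 on the minus strand (ENSMUSG00000005057.13 in GENCODE). Zfp157 lies on the plus strand of the same chromosome from 138441458 to 138460900, its start 2.19 Mb from that of Sh2b2, and Fam20c on the plus strand from 138755081 to 138810063, 2.51 Mb away. Sh2b3 is on the same chromosome too, from 121815481 to 121837645 on the minus strand, but 14.41 Mb away. It overlaps Atxn2 and a further transcript on the opposite strand, and since no source used here says whether counting used the strand, reads of these genes may be shared. Sh2b1 lies on chromosome 7 from 126466993 to 126476650 on the minus strand. All 5 are protein coding.

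The sequence around the start of the 3 genes that differed with Ptpn6 deletion is shown because they lie close together and differed in the same contrasts. Each window, from RefSeq on GRCm38.p6, runs from 250 bases before to 50 bases after an annotated transcript start and reads 5′ to 3′ on the gene's own strand. They cover chr5:136244891-136245190 for Sh2b2 (within the annotated span of the gene), chr5:138441226-138441525 for Zfp157 and chr5:138754831-138755130 for Fam20c. Capitals mark the GAGGAA core bound by the myeloid factor PU.1.
Sh2b2: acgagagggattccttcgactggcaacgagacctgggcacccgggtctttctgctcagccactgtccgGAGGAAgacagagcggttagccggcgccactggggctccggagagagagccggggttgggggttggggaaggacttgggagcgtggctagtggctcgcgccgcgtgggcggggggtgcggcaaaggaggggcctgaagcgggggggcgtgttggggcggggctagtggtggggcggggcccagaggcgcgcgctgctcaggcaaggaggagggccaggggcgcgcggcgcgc
Zfp157: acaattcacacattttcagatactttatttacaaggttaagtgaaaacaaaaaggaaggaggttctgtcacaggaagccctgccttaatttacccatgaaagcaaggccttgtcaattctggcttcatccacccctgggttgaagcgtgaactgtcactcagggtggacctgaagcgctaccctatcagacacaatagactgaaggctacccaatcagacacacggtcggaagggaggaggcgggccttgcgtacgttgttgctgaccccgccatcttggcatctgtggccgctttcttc
Fam20c: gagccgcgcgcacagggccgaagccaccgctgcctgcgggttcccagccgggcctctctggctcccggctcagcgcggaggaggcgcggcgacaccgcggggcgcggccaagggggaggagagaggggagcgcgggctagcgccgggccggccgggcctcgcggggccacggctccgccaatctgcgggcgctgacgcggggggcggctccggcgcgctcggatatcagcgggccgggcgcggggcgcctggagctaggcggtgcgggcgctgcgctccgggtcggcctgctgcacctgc
The Fam20c window held 47 CG pairs at 80.7% GC and the Sh2b2 window 29 at 72.3% GC, while Zfp157 held 9 at 49.7% GC. The median over all 32851 windows of the table was 7 CG pairs and 52.7% GC. Both strands were searched for GAGGAA, TTGCNNAA (the C/EBP core), TTCNNNGAA (STAT) and CACGTG (the E-box), which occur in 28.3%, 10.8%, 8.30% and 7.15% of all windows. The only match in these 3 windows was the single GAGGAA of Sh2b2, and the Sh2b3 window held 1 GAGGAA and 1 CACGTG.

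Sh2b2, the adaptor that brings Cbl to activated receptors, was lower in every library with Ptpn6 deletion than in any library without it. The wild-type libraries stood at 19.9, 22.4 and 17.6 CPM, the Ripk3-/- libraries at 25, 24.2 and 38.5 CPM and the Mlkl-/- libraries at 38.8, 27.3 and 27.1 CPM. Ripk3-/- Mlkl-/- replicates 2 and 3 stood at 31.0 and 18.2 CPM. With Ptpn6 deleted, levels were 9.46, 6.69 and 7.98 CPM in Ripk3-/- Ptpn6∆PMN, 13.7 and 9.05 CPM in Mlkl-/- Ptpn6∆PMN, and 11.7, 9.87 and 10.8 CPM in Ripk3-/- Mlkl-/- Ptpn6∆PMN. The groups that also lacked Casp8 lay in the same low range. They read 9.32 and 6.96 CPM in Casp8∆PMN Mlkl-/- Ptpn6∆PMN, 9.32 and 10.0 CPM in Ripk3-/- Mlkl-/- Casp8∆PMN Ptpn6∆PMN, and 12.8 CPM in the Casp8∆PMN Ptpn6∆PMN library. The highest library with deletion (13.7 CPM) was below the lowest without it (17.6 CPM), and the medians were 9.46 and 25 CPM, a ratio of 0.378. Among the 16206 genes tested, 2 were lower without overlap in this way (0.0123%), Ptpn6 itself and Sh2b2, and counting both directions there were 3 (0.0185%), the other being Ap1s1.

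Read as a change with Ptpn6 deletion, the log2 difference of Sh2b2 was -1.86 (SE 0.23) in the Ripk3-/- background, -1.45 (SE 0.27) in Mlkl-/- and -1.19 (SE 0.25) in Ripk3-/- Mlkl-/-, with an average of -1.50 (SE 0.15). Sh2b2 was thus at 0.354 of the level without deletion on average. Its groups did not overlap in any of the 3 backgrounds, as was so for 9.2%, 35.7% and 13.4% of all genes in turn. In these bulk samples fewer cells that express a gene and less RNA per cell cannot be told apart.

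Sh2b1 and Sh2b3 did not share that pattern. Sh2b1, which enhances JAK2 signalling, ran from 89.4 to 122 CPM with a median of 111 CPM in libraries with Ptpn6 deleted and from 90.2 to 127 CPM with a median of 103 CPM with Ptpn6 intact. Its average log2 change was 0.05 (SE 0.07). Sh2b3, the brake on cytokine signals, ran from 218 to 285 CPM (median 255 CPM) with Ptpn6 deleted and from 209 to 312 CPM (median 264 CPM) with Ptpn6 intact, an average log2 change of -0.06 (SE 0.06). Within single backgrounds 2 small gaps stood. Sh2b1 ran from 111 to 118 CPM in Mlkl-/- Ptpn6∆PMN against 96.6 to 104 CPM in Mlkl-/- (log2 change 0.17, SE 0.13). Sh2b3 ran from 232 to 251 CPM in Ripk3-/- Ptpn6∆PMN against 258 to 265 CPM in Ripk3-/- (log2 change -0.12, SE 0.10). Their coefficients of variation over the 24 assigned libraries, groups pooled, were 9.72% and 9.16%, against 56.4% for Sh2b2.

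Group means of Sh2b1 ran from 99.2 CPM in Ripk3-/- Mlkl-/- to 120 CPM in Ripk3-/- Mlkl-/- Casp8∆PMN Ptpn6∆PMN, and of the 9 pairs of neighbours in that order 7 overlapped. Means of Sh2b3 ran from 218 CPM in the single Casp8∆PMN Ptpn6∆PMN library to 284 CPM in Mlkl-/-, with 8 of 9 neighbouring pairs overlapping. For Sh2b2 the only gap among the 9 neighbouring pairs fell between wild-type (mean 20 CPM), the lowest group with Ptpn6 intact, and Casp8∆PMN Ptpn6∆PMN, the highest with Ptpn6 deleted.

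Fam20c, the secretory pathway kinase, was low while Ptpn6 was intact and higher in most libraries with Ptpn6 deletion. Wild-type libraries stood at 2.47, 3.57 and 2.38 CPM, Ripk3-/- at 3.03, 2.25 and 2.69 CPM, Mlkl-/- at 2.64, 2.28 and 3.95 CPM and Ripk3-/- Mlkl-/- at 3.90 and 3.82 CPM. With Ptpn6 deleted, levels were 3.92, 30.1 and 16.6 CPM in Ripk3-/- Ptpn6∆PMN, 20.1 and 60.7 CPM in Mlkl-/- Ptpn6∆PMN, and 3.30, 4.46 and 7.79 CPM in Ripk3-/- Mlkl-/- Ptpn6∆PMN. In 11 of 13 libraries with deletion Fam20c was above every library without it. The exceptions were replicate 1 of Ripk3-/- Ptpn6∆PMN and replicate 1 of Ripk3-/- Mlkl-/- Ptpn6∆PMN. The share of all genes with such a split was not counted, and Fam20c was chosen knowing that it differs with Ptpn6 deletion. With Casp8 deleted too, the libraries read 7.36 and 17.2 CPM in Casp8∆PMN Mlkl-/- Ptpn6∆PMN, 12.8 and 11.2 CPM in Ripk3-/- Mlkl-/- Casp8∆PMN Ptpn6∆PMN and 27.9 CPM in Casp8∆PMN Ptpn6∆PMN. Counts behind these values ran from 49 to 1181 reads a library.

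The log2 change of Fam20c with Ptpn6 deletion was 2.66 (SE 0.56) in Ripk3-/-, 3.77 (SE 0.60) in Mlkl-/- and 0.42 (SE 0.61) in Ripk3-/- Mlkl-/-, with an average of 2.28 (SE 0.34). Unlike Sh2b2, Fam20c varied widely between libraries of one genotype. Over all assigned libraries the highest level was 27 times the lowest, and the means followed the order Mlkl-/- Ptpn6∆PMN (40.4 CPM), Casp8∆PMN Ptpn6∆PMN (27.9 CPM), Ripk3-/- Ptpn6∆PMN (16.9 CPM), Casp8∆PMN Mlkl-/- Ptpn6∆PMN (12.3 CPM) and Ripk3-/- Mlkl-/- Casp8∆PMN Ptpn6∆PMN (12.0 CPM). Each of those groups overlapped the next. A gap separated the last of them from Ripk3-/- Mlkl-/- Ptpn6∆PMN (5.18 CPM), and below that the groups with Ptpn6 intact followed with overlap.

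Zfp157 was lower in 11 of 13 libraries with Ptpn6 deletion than in every library without it. Here too the share of all genes with such a split was not counted, and the gene was chosen knowing that it differs. Wild-type libraries stood at 11.9, 9.08 and 10.8 CPM, Ripk3-/- at 10.8, 11.8 and 10.3 CPM, Mlkl-/- at 11.4, 10.1 and 10.7 CPM and Ripk3-/- Mlkl-/- at 9.95 and 11.9 CPM. Ripk3-/- Ptpn6∆PMN read 8.81, 6.39 and 6.91 CPM, Mlkl-/- Ptpn6∆PMN 4.91 and 7.41 CPM, and Ripk3-/- Mlkl-/- Ptpn6∆PMN 10.8, 9.25 and 7.16 CPM. The exceptions were replicates 1 and 2 of Ripk3-/- Mlkl-/- Ptpn6∆PMN, which lay within the range of the intact libraries. With Casp8 deleted as well, Zfp157 read 5.95 and 8.32 CPM in Casp8∆PMN Mlkl-/- Ptpn6∆PMN, 8.36 and 8.72 CPM in Ripk3-/- Mlkl-/- Casp8∆PMN Ptpn6∆PMN and 6.86 CPM in Casp8∆PMN Ptpn6∆PMN, all below the intact libraries. The log2 change was -0.57 (SE 0.19) in Ripk3-/-, -0.80 (SE 0.22) in Mlkl-/- and -0.27 (SE 0.21) in Ripk3-/- Mlkl-/-, with an average of -0.55 (SE 0.12). In 8 of 25 libraries the estimated count of Zfp157 was not whole (beyond 0.01 of a whole number), so part of its reads was assigned by the authors' estimate among sequences that share them. This was so in 0 of 25 libraries for the other 4 genes.

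With an edgeR quasi-likelihood adjusted p under 0.05 as the threshold, 1 of the 5 genes passed with Ptpn6 deletion in Ripk3-/- (Sh2b2, against 0.0185% of all genes tested), 2 in Mlkl-/- (Sh2b2 and Fam20c, 1.51%), 0 in Ripk3-/- Mlkl-/- (0.00617%; 1 by DESeq2 and 1 at an unadjusted p under 0.05) and 3 in the average (Sh2b2, Fam20c and Zfp157, 1.55%). The genes were chosen on these contrasts, so the counts only describe the choice. Without Mlkl-/- replicate 2, Mlkl-/- replicate 3 or Mlkl-/- Ptpn6∆PMN replicate 2 neither Sh2b2 nor Fam20c passed in the Mlkl-/- background, and without Mlkl-/- replicate 1 only Fam20c did. Zfp157 no longer passed in the average in 9 of the refits with another setting.

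**Figure D2:**
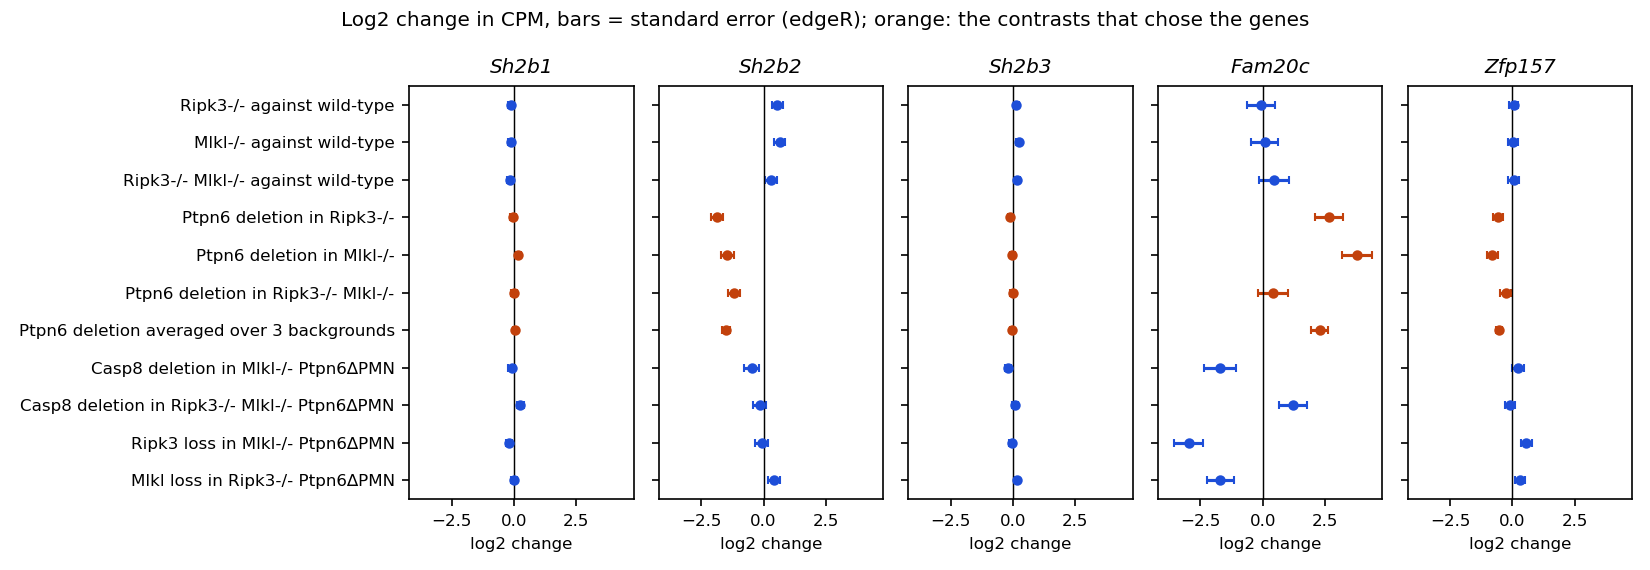
Log2 change of each gene in 11 comparisons with its standard error (edgeR). Orange marks the contrasts with Ptpn6 deletion that chose the genes, where Sh2b2 lies between -1.86 and -1.19, and blue marks the comparisons that did not choose them, which share libraries with the orange ones, among which Fam20c has the widest range (-2.97 to 1.22).

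Fam20c and Zfp157 ran in opposite orders within 2 of the 3 groups with Ptpn6 and no Casp8 deletion. In Ripk3-/- Ptpn6∆PMN, replicate 1 had the lowest Fam20c (3.92 CPM) and the highest Zfp157 (8.81 CPM), and replicate 2 the highest Fam20c (30.1 CPM) and the lowest Zfp157 (6.39 CPM). In Ripk3-/- Mlkl-/- Ptpn6∆PMN the same inverse order ran through all 3 libraries. Mlkl-/- Ptpn6∆PMN went the other way: replicate 2 had more of both, at 60.7 CPM of Fam20c and 7.41 CPM of Zfp157, than replicate 1 at 20.1 and 4.91 CPM. With Casp8 deleted too, Casp8∆PMN Mlkl-/- Ptpn6∆PMN also had more of both in replicate 2 (17.2 and 8.32 CPM) than in replicate 1 (7.36 and 5.95 CPM). In Ripk3-/- Mlkl-/- Casp8∆PMN Ptpn6∆PMN the order was inverse (12.8 and 11.2 CPM of Fam20c, 8.36 and 8.72 CPM of Zfp157).

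Markers of cell types differed between these libraries. The summed neutrophil markers stood at 62000, 118000 and 85100 CPM in replicates 1, 2 and 3 of Ripk3-/- Ptpn6∆PMN, and the B cell markers at 1250, 615 and 829 CPM. In Ripk3-/- Mlkl-/- Ptpn6∆PMN they were 63000, 82300 and 115000 CPM for neutrophils and 1770, 1240 and 395 CPM for B cells. In both groups the library with the least Fam20c thus had the lowest neutrophil and the highest B cell markers. Mlkl-/- Ptpn6∆PMN, the group with the most Fam20c, had neutrophil markers of 142000 and 126000 CPM (83400 to 97400 CPM in Mlkl-/-) and B cell markers of 395 and 433 CPM (572 to 913 CPM in Mlkl-/-). Its monocyte and macrophage markers, at 1610 and 1460 CPM against 965 to 1250 CPM in Mlkl-/-, were the highest of any group. Ptpn6 itself ran in the order inverse to Fam20c in Ripk3-/- Ptpn6∆PMN, at 295, 187 and 201 CPM. It did not in Ripk3-/- Mlkl-/- Ptpn6∆PMN, at 255, 314 and 309 CPM. Other values followed Fam20c in neither direction. Red cell markers stood at 3310, 634 and 4400 CPM in Ripk3-/- Ptpn6∆PMN. Casp8∆PMN Mlkl-/- Ptpn6∆PMN had neutrophil markers of 134000 CPM in both libraries, with Fam20c at 7.36 and 17.2 CPM. The part of cell composition in the levels of Fam20c and Zfp157 was not tested.

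**Figure D3:**
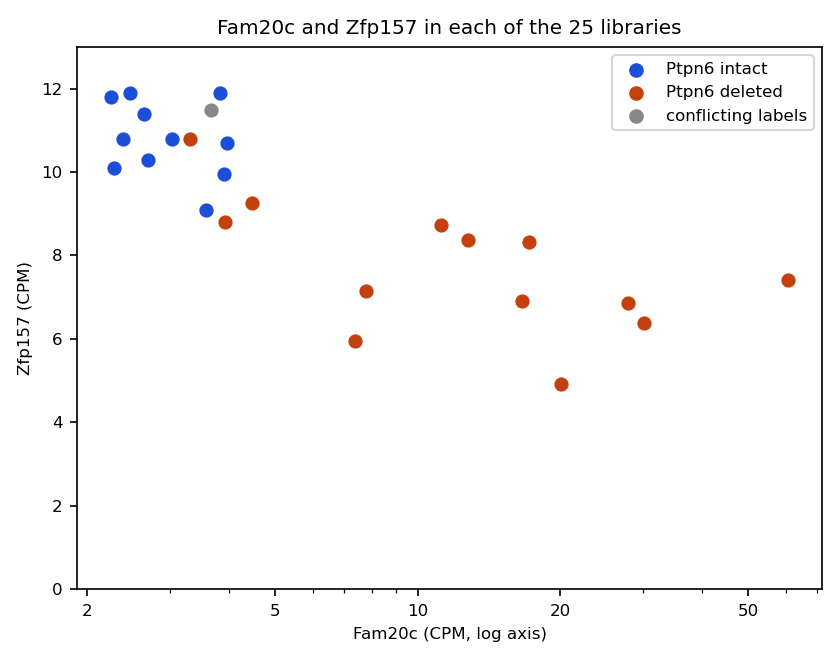
Level of Fam20c (CPM, log axis) against Zfp157 (CPM) in each of the 25 libraries, blue for Ptpn6 intact, orange for Ptpn6 deleted and grey for the library with conflicting labels. The intact libraries sit together at 2.25 to 3.95 CPM of Fam20c and 9.08 to 11.9 CPM of Zfp157, and the libraries with deletion spread from there to 60.7 CPM of Fam20c and down to 4.91 CPM of Zfp157.

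The comparisons of knockouts with wild-type were not used to choose the genes. The Ripk3-/-, Mlkl-/- and Ripk3-/- Mlkl-/- libraries also serve as controls of the contrasts above. Controls that run high would favour both the choice of Sh2b2 and a rise over wild-type. These comparisons are thus not independent of the choice, and p-values of the 5 genes are printed as a description only. None of the 5 genes passed in Ripk3-/- (0.228% of all genes did), Mlkl-/- (1.16%) or Ripk3-/- Mlkl-/- (1.04%) against wild-type by edgeR's quasi-likelihood test, nor by DESeq2, and 1, 2 and 0 of them had an unadjusted p under 0.05. Sh2b2 had the largest difference of the 5 in Ripk3-/- and Mlkl-/-, and Fam20c in Ripk3-/- Mlkl-/-. The Sh2b2 level was 20 ± 2.37 CPM in wild-type, 29.2 ± 8.06 in Ripk3-/- and 31.0 ± 6.70 in Mlkl-/- (SD, n = 3 each), without overlap with wild-type in either. Groups did not overlap in 19.3% and 31.3% of all genes in the same comparisons, and in 40.2% for Ripk3-/- Mlkl-/-, where Fam20c was the 1 gene of the 5 without overlap. The log2 difference was 0.55 (SE 0.23, edgeR adjusted p = 0.607) in Ripk3-/- and 0.64 (SE 0.23, edgeR adjusted p = 0.152) in Mlkl-/-. A fit of only the Mlkl-/- and wild-type libraries moved it past the threshold (0.65, SE 0.16, edgeR adjusted p = 0.0421). In Ripk3-/- Mlkl-/- the difference was 0.30 (SE 0.25, edgeR adjusted p = 0.622), with overlap, and it was -0.13 (SE 0.29) without Ripk3-/- Mlkl-/- replicate 2.

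Sh2b3 in Mlkl-/- was the other gene with an unadjusted p under 0.05, at 284 CPM on average against 242 CPM in wild-type (log2 difference 0.23, SE 0.10, edgeR adjusted p = 0.224). Sh2b1 differed from wild-type by -0.15 to -0.12 on the log2 scale in the 3 knockout groups. Zfp157 differed by 0.02 to 0.05, with standard errors of 0.19 to 0.21. Fam20c differed by -0.08, 0.07 and 0.46 in Ripk3-/-, Mlkl-/- and Ripk3-/- Mlkl-/- (SE 0.56, 0.56 and 0.61).

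Within the libraries that lack Ptpn6, removing Casp8, Ripk3 or Mlkl gave a second set of comparisons. All of them share libraries with the contrasts that chose the genes, so they are not independent of the choice, and their p-values are printed as a description only. Casp8 itself overlapped in Mlkl-/- Ptpn6∆PMN with and without its deletion (17.5 to 21.8 against 21.2 to 32.8 CPM). With Casp8 deletion, 0 of the 5 genes and 0 of all 16206 (0%) passed in either background by edgeR's quasi-likelihood test, and DESeq2 called 94 genes in Mlkl-/- Ptpn6∆PMN and 1 in Ripk3-/- Mlkl-/- Ptpn6∆PMN, none of them among the 5. Before adjustment 1515 and 750 genes had a p under 0.05. Of the 5 genes only Fam20c had an unadjusted p under 0.05, in both. Its level was lower with Casp8 deletion in Mlkl-/- Ptpn6∆PMN, at 7.36 and 17.2 CPM against 20.1 and 60.7 CPM (log2 change -1.72, SE 0.63, edgeR adjusted p = 0.413), and higher in Ripk3-/- Mlkl-/- Ptpn6∆PMN, at 12.8 and 11.2 CPM against 3.30, 4.46 and 7.79 CPM (1.22, SE 0.57, edgeR adjusted p = 0.864). Neither pair of groups overlapped, as was so for 41.0% and 14.8% of all genes. Sh2b2 differed by -0.48 (SE 0.29, edgeR adjusted p = 0.644) and -0.16 (SE 0.26, edgeR adjusted p = 0.915), with overlap in both.

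Loss of Ripk3 on top of Mlkl in Ptpn6-deleted neutrophils went with lower Fam20c, at 5.18 CPM on average in Ripk3-/- Mlkl-/- Ptpn6∆PMN against 40.4 CPM in Mlkl-/- Ptpn6∆PMN and with no overlap (28.1% of all genes had none). The log2 change was -2.97 (SE 0.58), which missed the threshold with an edgeR adjusted p of 0.0603. Without Mlkl-/- Ptpn6∆PMN replicate 1, which left 1 library in that group, the log2 change was -3.56. The libraries of that group lay far apart, at 20.1 and 60.7 CPM in replicates 1 and 2. Whether Fam20c passed is not given for fits that kept only 1 of them. Fam20c passed with a replicate block (-2.98, edgeR adjusted p = 0.0246), without a filter on low counts (edgeR adjusted p = 0.00759) and by DESeq2 (adjusted p = 0.000341). It also passed without Ripk3-/- Mlkl-/- Ptpn6∆PMN replicate 3 (edgeR adjusted p = 0.00241). It did not pass with DESeq2 size factors, with only the libraries compared, or without Ripk3-/- Mlkl-/- Ptpn6∆PMN replicate 1 or 2. Zfp157 went the other way, 0.56 (SE 0.22, edgeR adjusted p = 0.123), and passed without that same replicate 3 (0.70, edgeR adjusted p = 0.0209). Of all genes, 3 passed in this comparison (0.0185%). The count was 431 with the replicate block, 324 without a filter, 1489 by DESeq2 and 4861 without Ripk3-/- Mlkl-/- Ptpn6∆PMN replicate 3. Sh2b1, Sh2b2 and Sh2b3 differed by -0.19, -0.07 and -0.06. Neutrophil and B cell markers differed between these groups as given above, and their part was not tested.

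Loss of Mlkl on top of Ripk3 called 0 of the 5 genes and 0 of all genes (0%) by edgeR's quasi-likelihood test. DESeq2 called 1 gene, not among the 5, and 482 genes had a p under 0.05 before adjustment in edgeR. Fam20c, the only one of the 5 with an unadjusted p under 0.05, differed by -1.70 (SE 0.53, edgeR adjusted p = 1) with overlapping groups. Sh2b2 differed by 0.42 (SE 0.23, edgeR adjusted p = 1): the Ripk3-/- Mlkl-/- Ptpn6∆PMN libraries (9.87 to 11.7 CPM) all lay just above the Ripk3-/- Ptpn6∆PMN libraries (6.69 to 9.46 CPM), as was so in one direction or the other for 4.12% of all genes.

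With Ptpn6 deletion, every gene within 5 Mb of the start of Sh2b2 that passed in a single background was known beforehand to differ. They were Sh2b2 and Ap1s1 in Ripk3-/- (1.41% of this window, against 0.0185% of all genes), where only Ptpn6 passed besides. In Mlkl-/- Fam20c joined them (2.11%, against 1.51%). In Ripk3-/- Mlkl-/- Ap1s1 was the only gene of all tested that passed (0.704% of the window, against 0.00617%). Within 5 Mb of the start of Sh2b2, 142 genes were tested and 6 passed in the average over backgrounds (4.23%, 3 higher and 3 lower), against 9 of 799 (1.13%) on the rest of the chromosome and 1.55% of all genes. Of the 6, 4 were Sh2b2, Fam20c, Zfp157 and Ap1s1, known beforehand to differ. Without these 4 there remained 2 of 138 (1.45%). Leaving out genes known to pass lowers the share by construction, so this share is not a test of the region. Named after their values were seen, the 2 remaining genes are the predicted genes Gm30603 (-0.82, SE 0.18) and Gm40346 (1.22, SE 0.27). The median log2 change of those 138 genes was 0.020, against 0.010 on the rest of the chromosome and 0.002 over all genes. With 2 Mb to either side 3 of 93 genes passed (3.23%), and with 10 Mb 6 of 224 (2.68%).

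Ap1s1 encodes the small sigma chain of a clathrin adaptor complex that sorts cargo at the Golgi. It lies 0.80 Mb from the start of Sh2b2, between it and Zfp157. It stood at 65.4 to 157 CPM with Ptpn6 deleted and 8.15 to 14.0 CPM with Ptpn6 intact, and its average log2 change was 3.22 (SE 0.15). Sh2b2 and Ap1s1, at the ends of that interval, thus differed in opposite directions, and the 9 tested genes between them had average log2 changes of -0.42 to 0.76 with a median of 0.108. The nearest named neighbours of Sh2b2 were Prkrip1, with a log2 change of 0.07 (SE 0.10), and Cux1, a transcription factor, with 0.26 (SE 0.10). The predicted gene Gm30408, whose annotated span overlaps the start of Sh2b2, stood below 1 CPM and differed by -0.42 (SE 0.28). Between Zfp157 and Fam20c lie Zfp68, which differed by -0.08 (SE 0.07), and A430033K04Rik (0.20, SE 0.17). Pvrig, on the other side of Zfp157, differed by 0.31 (SE 0.16). The predicted gene Gm5294, the first tested gene past the end of Fam20c, differed in the same direction as Fam20c in Ripk3-/- (1.55) and Mlkl-/- (1.79) but not in Ripk3-/- Mlkl-/- (-0.06). Its average log2 change was 1.09 (SE 0.29), which did not pass, at mean levels of 1.93 CPM without and 4.32 CPM with deletion over the 3 backgrounds. The predicted neighbours were named after their values were seen. Prkar1b, the next gene after Gm5294, was under 1 CPM (0.382 on average with Ptpn6 intact and 0.179 with Ptpn6 deleted). Leaving predicted genes aside, the other genes of the window with at least 5 CPM and the largest average changes were Amz1 (-1.10, SE 0.39), Iqce (-0.59, SE 0.16), Cldn13 (-0.57, SE 0.38) and Pop7 (0.41, SE 0.13), none of which passed.

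**Figure D4:**
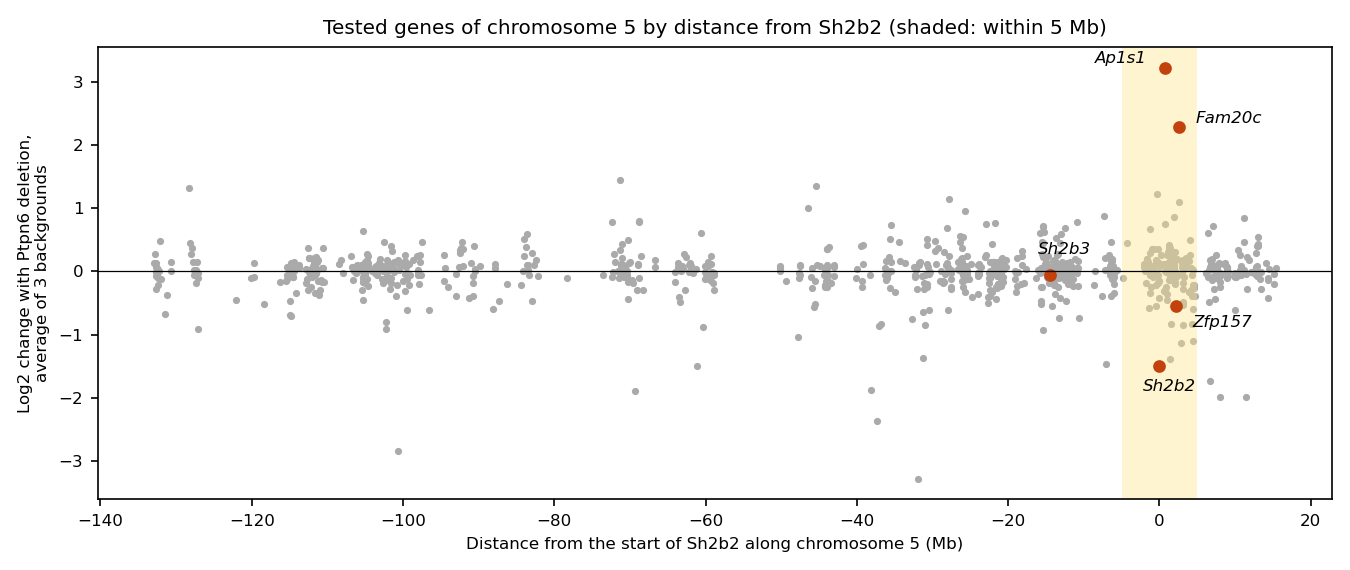
Average log2 change with Ptpn6 deletion of the tested genes on chromosome 5 against their distance from the start of Sh2b2 in Mb, with the 5 Mb to either side shaded. Ap1s1 (3.22), Fam20c (2.28), Zfp157 (-0.55) and Sh2b2 (-1.50) are marked inside the shaded window, and Sh2b3 (-0.06), 14.41 Mb away, lies among the other genes near 0.

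In the knockouts against wild-type, the window held 3 called genes in Mlkl-/- (2.11%) and 1 in Ripk3-/- Mlkl-/- (0.704%), beside 1.16% and 1.04% of all genes. Named after their values were seen, they were Gtf2ird2, Lfng and Trip6 in Mlkl-/- and Lfng again in Ripk3-/- Mlkl-/-.

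The profile of Sh2b2 over the 10 genotype groups, on a log2 scale centred on its own mean, was most like those of Acot1, Lhx1, Scnn1a and Tgm3 among 8969 genes of at least 5 CPM, predicted genes left aside. The root mean square differences were 0.33 to 0.35, against 0.68 for a flat profile, and none of these genes lies on chromosome 5. Their average log2 changes with Ptpn6 deletion were -1.03 to -0.74, and each overlapped between libraries with and without deletion, as in Scnn1a at 57 to 153 against 115 to 231 CPM. Fam20c was most like Gnb5 (0.25), Ggt1 (0.29) and Wfdc17 (0.34), against 1.24 for a flat profile, and these had average log2 changes of 2.09, 1.73 and 2.08. Zfp157 was most like Ctc1, Pomk and Galnt11 (0.10 to 0.11, against 0.29 for a flat profile). Over single libraries Lhx1 and Scnn1a were again among the nearest to Sh2b2, and 0 of the 3 genes named for Zfp157 were among the nearest to it.

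Of 20 listed receptors and kinases that SH2B proteins bind, 18 were tested. In the average over backgrounds 1 passed, upward (Jak3), beside 1.55% of all genes. Of the 18, 8 were above 0, with a median log2 change of -0.07 against 0.00 over all genes. By edgeR, 6 of the 18 had an unadjusted p under 0.05, as had 2519 of all 16206 genes. Named after their values were seen, Kit (0.61, SE 0.17) and Csf2rb (0.56, SE 0.15) were higher. Igf1r (-0.29, SE 0.09) and Csf1r (-0.23, SE 0.09) were lower, and none of these passed in the average. Jak3, the kinase of the common gamma chain receptors, rose in Mlkl-/- from 52.2 ± 4.85 CPM (SD, n = 3) to 138 ± 35.8 CPM (SD, n = 2) with Ptpn6 deletion (log2 change 1.41, SE 0.21, edgeR adjusted p = 0.00814) and by 0.85 on average (SE 0.12, edgeR adjusted p = 0.00414). Its log2 change was 0.80 in Ripk3-/- and 0.35 in Ripk3-/- Mlkl-/-, and it passed in neither. Jak3 was not followed in the refits that left out single libraries. Jak2, the best known partner of SH2B1, differed by -0.09 (SE 0.08). Csf3r, the G-CSF receptor of neutrophils and the most abundant listed receptor, differed by -0.17 (SE 0.12). Csf1r, the M-CSF receptor and also a monocyte marker, passed in Mlkl-/- against wild-type (log2 change 0.74, SE 0.14, edgeR adjusted p = 0.0166), at 305 ± 57.8 against 183 ± 12.0 CPM (SD, n = 3 each). It passed in Ripk3-/- Mlkl-/- too (310 ± 34.4 CPM, n = 2, log2 change 0.76, SE 0.16, edgeR adjusted p = 0.0261).

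Of 26 listed adaptors, ligases and effectors, 25 were tested. In the average with Ptpn6 deletion their median log2 change was -0.01, with 11 of 25 above 0. Cbl, the ligase that SH2B2 recruits, differed by 0.00 (SE 0.10), and Stat3 by 0.26 (SE 0.10). Gab2, a docking protein, was the 1 gene of the list that passed in any of the 11 comparisons, rising in Ripk3-/- Mlkl-/- to 84.2 ± 4.50 CPM (SD, n = 2) from 47.9 ± 0.889 CPM in wild-type (SD, n = 3; log2 change 0.81, SE 0.18, edgeR adjusted p = 0.0358). In that comparison 1.04% of all genes passed. Gab2 was not followed in the refits that left out single libraries.

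Of the secretory pathway kinases related to FAM20C, 11 of 18 listed names were in the table (the list holds older and newer names of some genes) and 8 were tested. None of the other tested genes of the list passed in any comparison at the main settings. Fam20c, itself on the list, passed there only with Ptpn6 deletion, in Mlkl-/- (1.51% of all genes) and in the average (1.55%). Since Fam20c was chosen on these contrasts, its place in the list is not a result. Its relatives Fam20b, which acts on proteoglycan linkers, and Pomk, which acts on dystroglycan glycans, differed by 0.04 (SE 0.06) and -0.49 (SE 0.14) in the average, and Fam20a was below the filter.

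**Figure D5:**
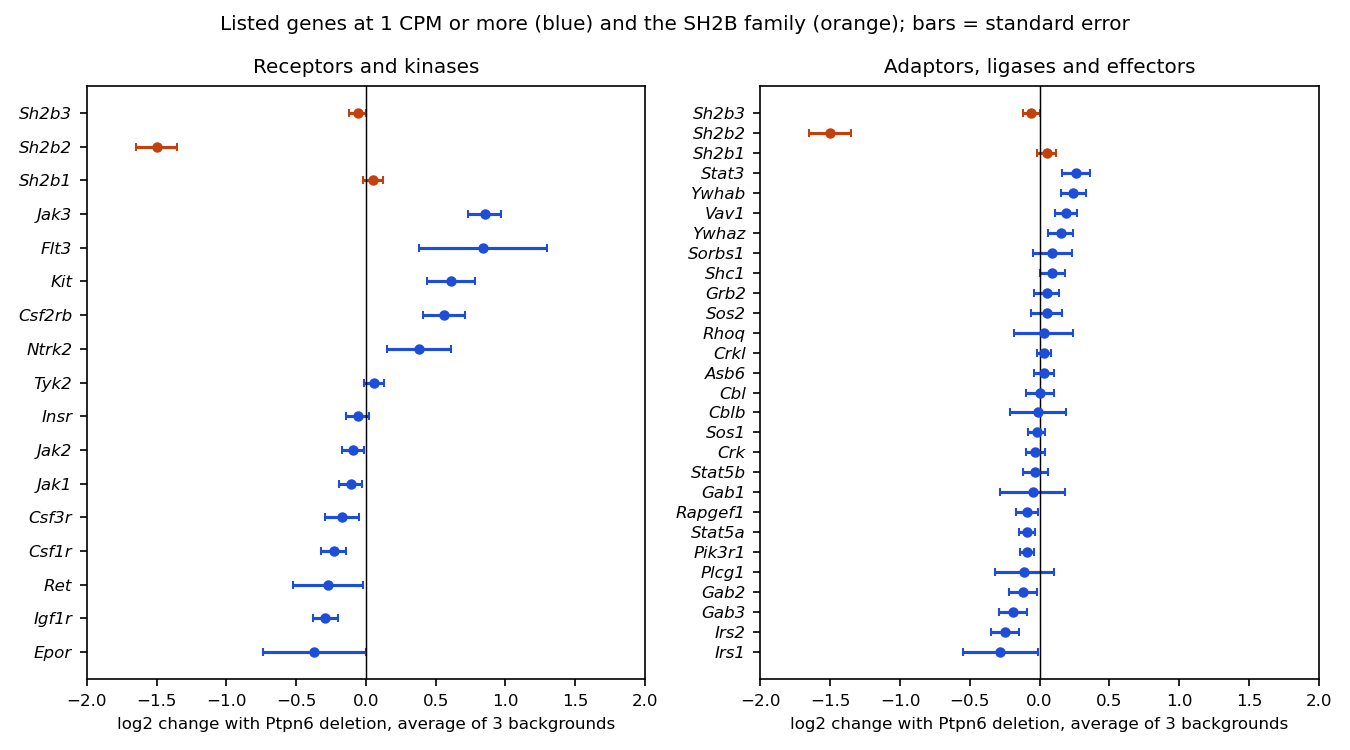
Average log2 change with Ptpn6 deletion and its standard error (edgeR) for listed receptors and kinases (left) and adaptors, ligases and effectors (right) at 1 CPM or more, in blue, with the SH2B family in orange in both panels. Sh2b2 (-1.50) lies apart from Sh2b1 (0.05) and Sh2b3 (-0.06), and Jak3 (0.85) is the only gene in blue that passed in this average.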

How the data were processed

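The authors deposited estimated counts per gene. The submitters' processing notes name Salmon 0.14.1, DESeq2 and the build GRCm38.p6. Rounding to whole numbers was done here. The step from transcripts to genes is not given in the sources used here.

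The 23 libraries of the 9 groups with 2 or more libraries were fitted together in edgeR 4.0.16 (R 4.3.3; TMM, filterByExpr with minimum count 10 and total 15, quasi-likelihood F test, 14 residual degrees of freedom), with Benjamini-Hochberg adjustment over 16206 genes. CPM used effective library sizes over all 25 libraries. RefSeq matched 92.6% of tested symbols. No 2 libraries held identical counts. Alternatives were DESeq2 size factors, DESeq2 1.42.0, no filter, a fit of the compared libraries alone, a replicate block, and dropping 1 library at a time. A library left alone in its group took its spread from the others. The fit was tested on simulated data.

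The genes and lists were chosen with earlier results of these data known. Named genes were the 5, Ap1s1, the 8 largest changes within 5 Mb and the nearest profiles (predicted genes left aside in both), and list members called or most abundant or chosen for their tie to SH2B proteins. One gene that this rule names is not reported here. Protein sequences were not used here.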

Additional observations from a re-analysis of the deposited data

Results flagged for a closer look

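With Casp8 deletion, 3 of the genes differed in opposite directions in the Mlkl-/- Ptpn6∆PMN and Ripk3-/- Mlkl-/- Ptpn6∆PMN backgrounds. Their groups overlapped in neither (41.0% and 14.8% of all genes had no overlap in turn). The share of all genes meeting both conditions at once was not counted. Sh2b1 changed by -0.08 (SE 0.14) and 0.26 (SE 0.13), and its groups met at 111 CPM in Mlkl-/- Ptpn6∆PMN as rounded. Sh2b3 changed by -0.22 (SE 0.12) and 0.08 (SE 0.11), and its groups met at 278 CPM in Ripk3-/- Mlkl-/- Ptpn6∆PMN as rounded. For Fam20c the log2 difference between the backgrounds was 2.93 (SE 0.85, unadjusted p = 0.00283, edgeR adjusted p = 0.387 over 16206 genes). This interaction was added after the values were seen, and its adjusted p ran from 0.0917 to 0.787 when single libraries were left out (log2 difference 1.92 to 3.67), with 0.0911 by DESeq2 and 0.338 with a replicate block. For Sh2b1 the difference was 0.34 (SE 0.19, edgeR adjusted p = 0.579) and for Sh2b3 0.30 (SE 0.17, edgeR adjusted p = 0.579), so none of the 3 differences passed.

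In libraries outside the comparisons, Fam20c stood at 27.9 CPM in the single Casp8∆PMN Ptpn6∆PMN library, above every wild-type library (2.38 to 3.57 CPM). In the library with conflicting labels Sh2b2 stood at 26.8 CPM and Fam20c at 3.65 CPM, also above every wild-type library. For Fam20c the margin over the highest wild-type library (3.57 CPM) was small. Both values lay within the range of the assigned libraries with Ptpn6 intact (17.6 to 38.8 CPM for Sh2b2 and 2.25 to 3.95 CPM for Fam20c).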

How the results depend on the processing

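Of 620 refits of the log2 change of a gene in a comparison, 562 kept direction and side of the threshold, 17 lost a call, 13 gained one and 28 uncalled changes turned sign. No called change turned direction. In the average with Ptpn6 deletion, Zfp157 lost its call in 9 fits.

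The number of the 5 genes called changed as follows. In Mlkl-/- against wild-type it was 1 with only the libraries compared. With Ptpn6 deletion in Ripk3-/- it was 2 without a filter, 2 by DESeq2, 0 with only the libraries compared and 1 to 2 leaving out single libraries. In Mlkl-/- it was 3 by DESeq2 (with Zfp157) and 0 to 2 leaving out single libraries, being 1 without Mlkl-/- replicate 1 and 0 without Mlkl-/- replicate 2, Mlkl-/- replicate 3 or Mlkl-/- Ptpn6∆PMN replicate 2. In Ripk3-/- Mlkl-/- it was 1 by DESeq2 and 0 to 1 leaving out single libraries (1 without Ripk3-/- Mlkl-/- replicate 3). With Ripk3 loss it was 1 without a filter, 1 by DESeq2, 1 with a replicate block and 0 to 2 leaving out single libraries. The cause of these changes was not tested.

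Replicate numbers did not pair the libraries in most comparisons. In each comparison with 3 shared numbers at least 1 correlation of same-numbered deviations was at or below 0.1. With fewer shared numbers, all were above 0.1 in Ripk3-/- Mlkl-/- against wild-type (0.174 and 0.196). The same held with Casp8 deletion in Mlkl-/- Ptpn6∆PMN (0.149 and 0.149), but not in the remaining comparisons. With 2 libraries in each group the correlations of replicates 1 and 2 are equal by construction, so 0.149 counts as 1 value. With the replicate block the genes called in all went from 3 to 431 with Ripk3 loss and from 169 to 101 in Ripk3-/- Mlkl-/- against wild-type. Counts over all genes in the average with Ptpn6 deletion ran from 7 (without Mlkl-/- Ptpn6∆PMN replicate 2) to 1037 (without Ripk3-/- Ptpn6∆PMN replicate 1), against 251. Of 100 group levels, 90 moved by less than 1 SD under other scalings. Depth limits Fam20c most, at 49 to 90 counts in libraries with Ptpn6 intact.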

Other observations

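The library with conflicting labels, which one label places with Ripk3-/- Mlkl-/- and others with Mlkl-/- Ptpn6∆PMN, had 102 CPM of Sh2b1, 263 CPM of Sh2b3 and 11.5 CPM of Zfp157. Its Ap1s1 stood at 12.3 CPM and its Ptpn6 at 582 CPM, among the libraries with Ptpn6 intact. Its Ripk3 stood at 0.0879 CPM, within the range of libraries labelled Ripk3-/- and below those labelled Mlkl-/- with Ripk3 intact (2.51 to 5.22 CPM). These values go against the label Mlkl-/- Ptpn6∆PMN. It was placed in no group.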
